A study of Mus musculus with 65 samples.

Results

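The tubulins and kinesins are the building blocks and the forward-moving motors of the microtubule cytoskeleton, and 62 genes of these families are described here in single outer hair cells (OHCs) of the mouse cochlea. Members were taken by symbol alone from the 55292 gene symbols of the deposited table: 19 tubulin genes, 39 symbols beginning with Kif and 4 kinesin light chain genes (Klc). One of the Kif symbols, Kif16bos, is an antisense noncoding transcript and not a motor. The data are 65 hand-picked cells at postnatal day 10, each sequenced as its own full-length Smart-Seq HT library. The CKO group holds 17 cells from Atoh1Cre/+; Casz1flox/flox; Slc26a5FlpO/+; Rosa26FSF-H2BEGFP/+ mice, in which Cre expressed from Atoh1 is meant to delete the transcription factor gene Casz1. The WT group holds 48 cells from Slc26a5FlpO/+; Rosa26FSF-H2BEGFP/+ mice, whose labels list neither Cre nor the floxed alleles. Both groups share the FlpO driver at the prestin gene Slc26a5 and the nuclear green reporter it switches on, so the groups differ in Cre as well as in Casz1. Titles and design call all cells OHCs and were followed, although a protocol text common to every sample speaks of inner hair cells and induced OHCs.

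Microtubules are polymers of alpha- and beta-tubulin pairs, nucleated from gamma-tubulin, and mammals encode each subunit in several genes (isotypes) that differ mainly in the acidic tail at the end of the protein. Kinesins are motors that use ATP to walk along microtubules, mostly toward the plus end; some families instead take microtubules apart or work only in the mitotic spindle. In hair cells microtubules fill the cell body and meet the cuticular plate below the hair bundle, and a kinocilium is built from an axoneme in the developing cell.

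Total counts per cell ran between 8239671 and 15320549 in CKO cells and between 7458126 and 17107710 in WT cells. Levels are given as CPM, counts per 1000000 counts, either for 1 cell or for the summed counts of a group. The OHC genes Slc26a5 and Ocm were at 1175 and 49172 CPM in the CKO sum and at 931 and 36667 CPM in the WT sum, with Slc26a5 counted in every cell. Inner hair cell markers (4 of 7 at or above 5 CPM) summed to 1536 CPM in the CKO group and 1830 CPM in the WT group. Most of it was Calb2, at 1431 CPM in CKO cells and 1647 CPM in WT cells. Otof was at 81.6 CPM in CKO cells and 170 CPM in WT cells, and Prkd1 was at least 2-fold higher in CKO cells. Supporting cell markers (6 of 17 at or above 5 CPM) summed to between 907 and 4046 CPM in CKO cells and between 1033 and 5722 CPM in WT cells, most of it S100a1. Fgfr3 was at 12.2 CPM in the CKO sum and 40.7 CPM in the WT sum. Sox2, Prox1, Hes1, Fabp7 and Epyc had counts in WT cells but none in CKO cells, and all stayed under 5 CPM in the WT sum. Neuron markers (4 of 12 at or above 5 CPM) summed to between 135 and 1176 CPM in CKO cells. In WT cells they summed to between 98.9 and 1433 CPM. Rbfox3, Elavl4, Nefh and Stmn2 had no count in CKO cells and stayed under 5 CPM in the WT sum. The CKO group has fewer cells, 17 against 48, and the share of all genes counted in WT cells alone was not taken. These absences therefore show no difference between the groups. Markers of glia, macrophages, mesenchyme, endothelium and erythroid cells summed to 64.9, 3.85, 12.3, 8.28 and 5.06 CPM in the CKO group and to 128, 19.3, 32.2, 2.03 and 4.41 CPM in the WT group. Their part in the values below was not tested. Casz1 itself was at 46.2 CPM in the CKO sum and 53.3 CPM in the WT sum; a count over all exons of the gene cannot check the loss of some of them, and the sources used here do not name the floxed exons. WT cells 1 to 11, 12 to 45 and 46 to 48 stood apart in mt-Co2, a mitochondrial gene, at 33.5 to 83.6, 229 to 644 and 100.1 to 111 CPM, with CKO cells at 94.8 to 283 CPM. Xist without Y-linked counts was found in 15 of 17 CKO cells and 9 of 48 WT cells, 8 of these among WT cells 1 to 11. The Xist pattern and these runs of cell numbers move with genotype and with each other, and their part was not tested; values against each run stand beside the main results. Since no label ties a cell to an animal, litter or culture, the cells of each genotype form 1 sample, no test was possible and no p-value is given.

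Most tubulin and kinesin genes that could be measured lay within 2-fold between CKO and WT cells, and those that did not were mostly counted in few cells. Of the 62 genes, 5 had no count in any cell, 24 stayed under 5 CPM in both group sums, and 33 reached 5 CPM in at least the higher group and were taken as measured: 10 tubulins and 23 kinesins and light chains. Of these 33, 20 were higher and 13 lower in CKO cells, against 5469 and 5373 of the 10842 genes of the table that passed the same minimum. At least 2-fold higher were 6 (Kif20a, Tubb2b, Kif5a, Tubg1, Kif28 and Tubb5), 18.2% of the 33, against 15.1% of those 10842 genes. At least 2-fold lower were 4 (Kif3b, Kif19a, Kif16b and Klc3), 12.1%, against 14.5% of those 10842 genes. Both shares lie close to the background. Against WT cells 1 to 11 alone, 7 of 34 measured members were at least 2-fold higher (background 22.2%) and 4 lower (17.9%). Against WT cells 12 to 45 alone, 7 of 34 were higher (17%) and 5 lower (15.9%). Against the 3 WT cells 46 to 48, 12 of 31 were higher (33.9%) and 2 lower (21.2%). Among cells with the Xist pattern, 8 of 33 were higher (24.4%) and 4 lower (19%). The median log2 ratio of CKO over WT was 0.32 over the 10 tubulins and 0.03 over the 23 kinesins and light chains, with 0.01 over all 10842 genes. Summed over all members, CPM per cell was 1519 at the lowest, 2581 at the median and 3703 at the highest in CKO cells, and 1193, 2345 and 3525 CPM in WT cells, so the groups overlapped almost entirely. Of the 10 members past 2-fold, 8 were counted in fewer than 50% of the cells of the higher group, the exceptions being Tubg1 and Klc3.

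**Figure D1:**
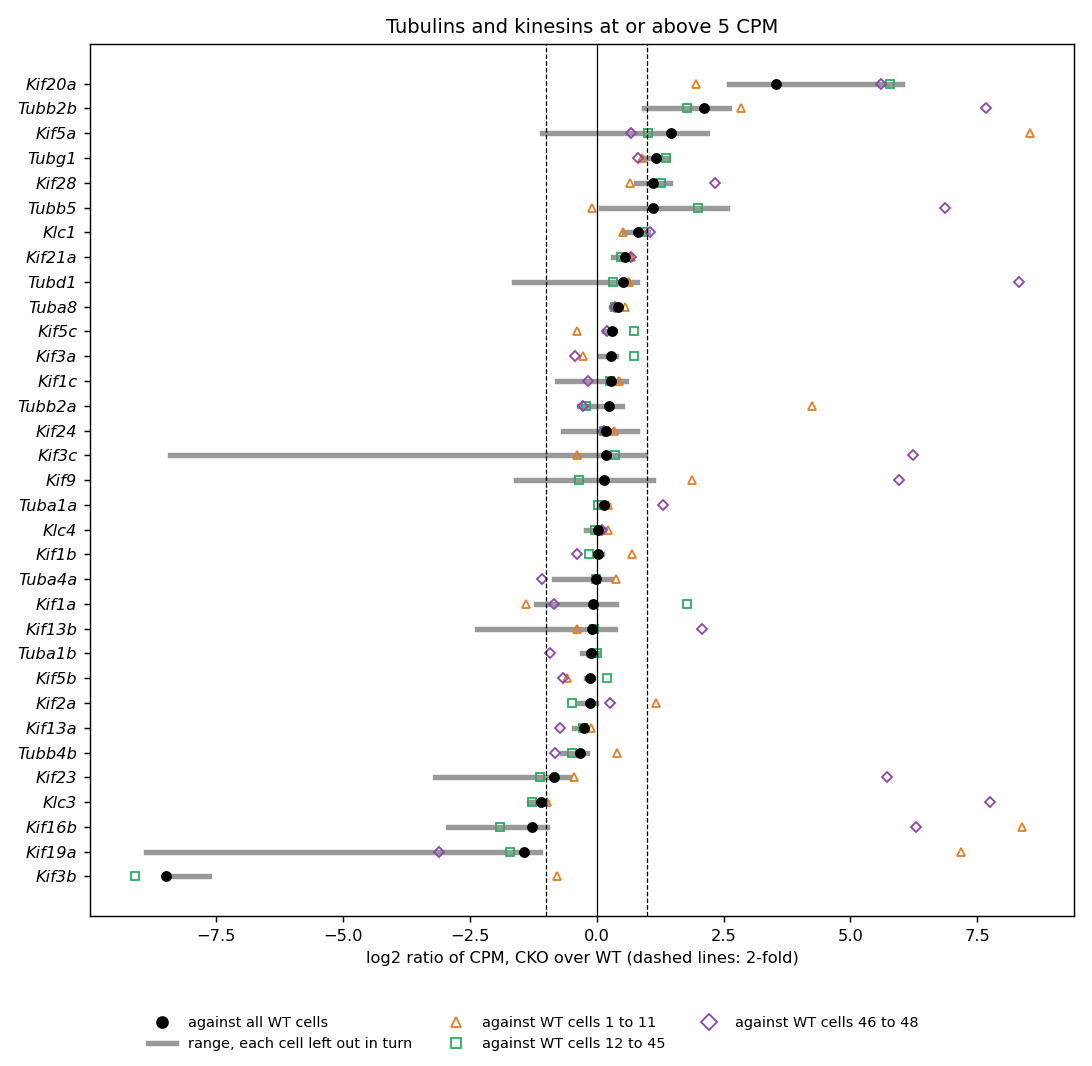
Log2 ratio of CPM, CKO over WT, for the 33 measured members, against all WT cells (black), with the range when each cell is left out in turn (grey) and against each run of WT cells (open symbols). Where a group had no count it was set to 3 counts, so most symbols far from 0 are bounds; the widely expressed Tuba8, Tuba1a, Kif5b and Kif13a have short grey ranges close to 0, and the members past the dashed 2-fold lines mostly have long ones.

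Counted alpha-tubulin reads of these OHCs came mainly from Tuba1a and Tuba8. Tuba1a (chr15:98949837-98953703, GRCm38, minus strand), the main alpha-tubulin of developing neurons, was at 20.7 CPM in the lowest, 213.7 in the median and 467 in the highest CKO cell, and at 0.20, 204.2 and 729 CPM in WT cells. Its summed level was 259.7 CPM in CKO cells and 236 CPM in WT cells, a log2 ratio of 0.14 (0.12 to 0.15 by counting error alone), and the groups overlapped throughout. Tuba8 (chr6:121210696-121226854, plus strand), a divergent alpha-tubulin, was at 117, 257 and 614 CPM in the lowest, median and highest CKO cell and at 0.089, 193 and 666 CPM in WT cells. Summed, Tuba8 reached 288 CPM in CKO cells and 217 CPM in WT cells, a log2 ratio of 0.41 (0.40 to 0.42 by counting error alone), which stayed positive in every run of WT cells (0.56 for cells 1 to 11, 0.35 for cells 12 to 45 and 0.35 for cells 46 to 48). The CKO cell was the higher in 68.6% of the 816 possible pairings of a CKO cell with a WT cell. Tuba1b, the widely expressed alpha-tubulin of dividing and resting cells, was at 30.5 CPM in CKO cells and 32.9 CPM in WT cells, counted in 15 of 17 and 44 of 48 cells. Tuba4a was at 15.4 CPM in CKO cells and 15.7 CPM in WT cells, counted in only 5 of 17 and 12 of 48 cells. Its log2 ratio of -0.02 was -0.85 without CKO cell 4 and 0.28 without WT cell 4. Tuba4a exons overlap those of Stk16 on the opposite strand, and 35.4% of its windows of 50 bases are shared with another gene.

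Of all 50-base windows of exon sequence, 75.5% of Tuba1a and 75.1% of Tuba1b also occur in another gene, including each other and Tuba1c, against 14.7% of Tuba8, where the shared windows belong mostly to the opposite-strand gene Gm15856. The sources used here do not say how reads with several matches were counted, so the division between Tuba1a, Tuba1b and Tuba1c is uncertain. Because Tuba8 shares far fewer windows, its share against Tuba1a and the count of cells that each leads are uncertain as well. Tuba1c stayed under 5 CPM in both sums (3.64 CPM in CKO cells, 3.97 CPM in WT cells), yet had counts in 17 of 17 and 46 of 48 cells.

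Compared per kilobase of exon, Tuba1a made up 49.1% of alpha-tubulin reads in CKO cells and 52.3% in WT cells, and Tuba8 made up 43.4% in CKO cells and 38.3% in WT cells. Within a cell the balance ran widely: the Tuba8 share was 18.8% at the lowest, 46.6% at the median and 93.6% at the highest in CKO cells, and 0.012%, 36% and 99.8% in WT cells. Tuba8 was the leading alpha-tubulin in 9 of 17 CKO cells and 15 of 48 WT cells, Tuba1a in 8 CKO and 32 WT cells, and Tuba1b in 0 CKO cells and 1 WT cell. The Tuba8 share of the sum was 37.3% in WT cells 1 to 11, 37.8% in WT cells 12 to 45 and 50.3% in the 3 WT cells 46 to 48, so the value of 43.4% in CKO cells lay inside the range of the WT runs. All 65 cells had at least 1 alpha-tubulin gene at 5 CPM or more, with a median of 3 such genes per cell in both groups.

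**Figure D2:**
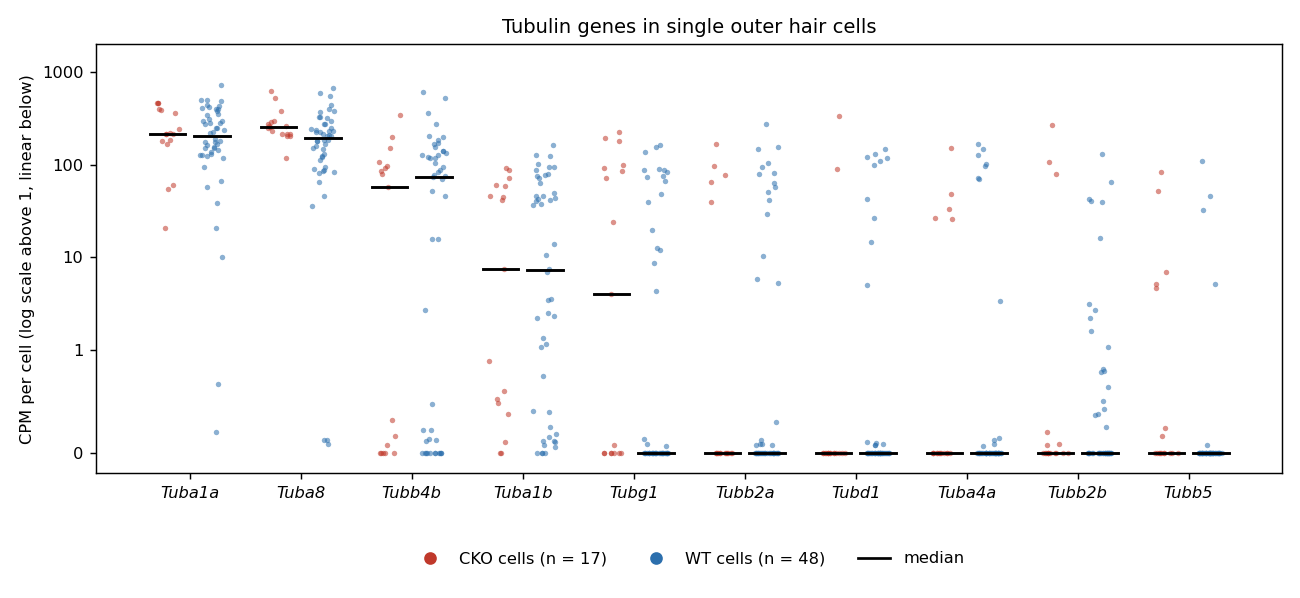
CPM of the 10 measured tubulin genes in each CKO cell (red) and each WT cell (blue), ordered by the WT level, with the group median as a black line; the axis is logarithmic above 1 CPM and linear below. Tuba1a and Tuba8 lay between 193 and 257 CPM at the median in both groups, and Tubb4b was lower and absent from a share of the cells. Tuba1b ran from 0 to 92.9 CPM in CKO cells and from 0 to 161 CPM in WT cells, and the other genes were near 0 in most cells.

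Per kilobase of exon, beta-tubulin genes summed to 66.2 CPM in CKO cells and 61.8 CPM in WT cells, against 293 and 250.2 CPM for alpha-tubulin genes in CKO and WT cells. Tubb4b, the beta-tubulin typical of cilia and many differentiated cells, led in both groups. Tubb4b (chr2:25222160-25224702, minus strand) was at 0 CPM in the lowest, 57.7 in the median and 345 in the highest CKO cell, and at 0, 74.0 and 608 CPM in WT cells. Its summed level was 71.3 CPM in CKO cells and 89.0 CPM in WT cells, a log2 ratio of -0.32; against WT cells 1 to 11 the ratio was 0.40, and against WT cells 12 to 45 it was -0.50, so its direction depended on the run. Tubb2a, a beta-tubulin of neurons and other differentiated cells, was at 27.2 CPM in CKO cells and 23.1 CPM in WT cells, counted in 5 of 17 and 21 of 48 cells. Its log2 ratio of 0.24 was -0.35 without CKO cell 8. Within the WT group Tubb2a was nearly absent from cells 1 to 11 (1.43 CPM) and present in part of cells 12 to 45 (31.6 CPM). The first cell of that run with a Tubb2a count was WT cell 22. Tubb2b, its close relative and a gene of young neurons, was at 28.1 CPM in CKO cells and 6.44 CPM in WT cells, a log2 ratio of 2.12. CKO cell 8 held 58.6% of the CKO counts of Tubb2b, and without it the log2 ratio was 0.94; at 5 CPM or more it was found in 3 of 17 CKO cells and 6 of 48 WT cells. Tubb5, a beta-tubulin of proliferating and many other cells, was at 9.61 CPM in CKO cells and 4.47 CPM in WT cells, a log2 ratio of 1.10, and was counted in 7 of 17 and 5 of 48 cells. That ratio was 0.09 without CKO cell 5, 0.57 without CKO cell 6, 2.57 without WT cell 8 and -0.09 against WT cells 1 to 11. Tubb3, the neuronal beta-tubulin used as a neuron marker, was at 0.020 CPM in the CKO sum and 0.0055 CPM in the WT sum, with counts in 1 and 2 cells.

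The last 60 coding bases of the 3 leading beta-tubulin genes are shown because Tubb4b differs more from the other pair here than over the whole coding sequence. They were read from GRCm38 with GENCODE M21 coding ends, 5′ to 3′ on the gene's strand and ending with the stop codon; capitals mark bases that differ from Tubb4b when counted back from the stop.
Tubb4b: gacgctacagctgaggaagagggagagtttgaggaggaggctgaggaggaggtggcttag
Tubb2a: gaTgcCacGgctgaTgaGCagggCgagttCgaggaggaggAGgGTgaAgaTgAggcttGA
Tubb2b: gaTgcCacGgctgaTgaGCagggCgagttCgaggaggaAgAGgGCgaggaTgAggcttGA
They lie at chr2:25222308-25222367, chr13:34074468-34074527 and chr13:34127471-34127530, all on the minus strand. Tubb2a and Tubb2b each differ from Tubb4b at 17 of the 60 bases, an identity of 71.7%, against 83.6% for Tubb2a and 83.5% for Tubb2b over all coding bases. Tubb2a and Tubb2b are 95% identical to each other in this stretch, which hardly separates them, and 96.5% identical over their 1338 coding bases. Another gene also holds 49.6% of the 50-base windows of Tubb2a, 36.9% of those of Tubb2b and 41.3% of those of Tubb4b, whose copies are mainly pseudogenes, against 0.089% for Tubb5. The division of reads between Tubb2a and Tubb2b is therefore uncertain. The shares of Tubb4b against Tubb5, and the alpha-tubulin sum against the beta-tubulin sum, are uncertain too, since the genes differ in shared windows.

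Per kilobase, Tubb4b made up 51.6% of beta-tubulin reads in CKO cells and 69.0% in WT cells. Tubb2a made up 25.6% in CKO cells and 23.2% in WT cells, Tubb2b 18.5% in CKO cells and 4.55% in WT cells, and Tubb5 4.37% in CKO cells and 2.18% in WT cells. No beta-tubulin gene reached 5 CPM in 5 of 17 CKO cells and 9 of 48 WT cells. Among the cells with at least 5 CPM of beta-tubulin in all, Tubb4b led in 7 of 12 CKO cells and 27 of 39 WT cells, Tubb2a in 2 CKO and 8 WT cells, Tubb2b in 2 CKO and 3 WT cells, and Tubb5 in 1 CKO cell and 0 WT cells. Exactly 1 beta-tubulin gene reached 5 CPM in 6 of 17 CKO cells and 27 of 48 WT cells, and 2 or more did in 6 CKO cells and 12 WT cells.

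**Figure D3:**
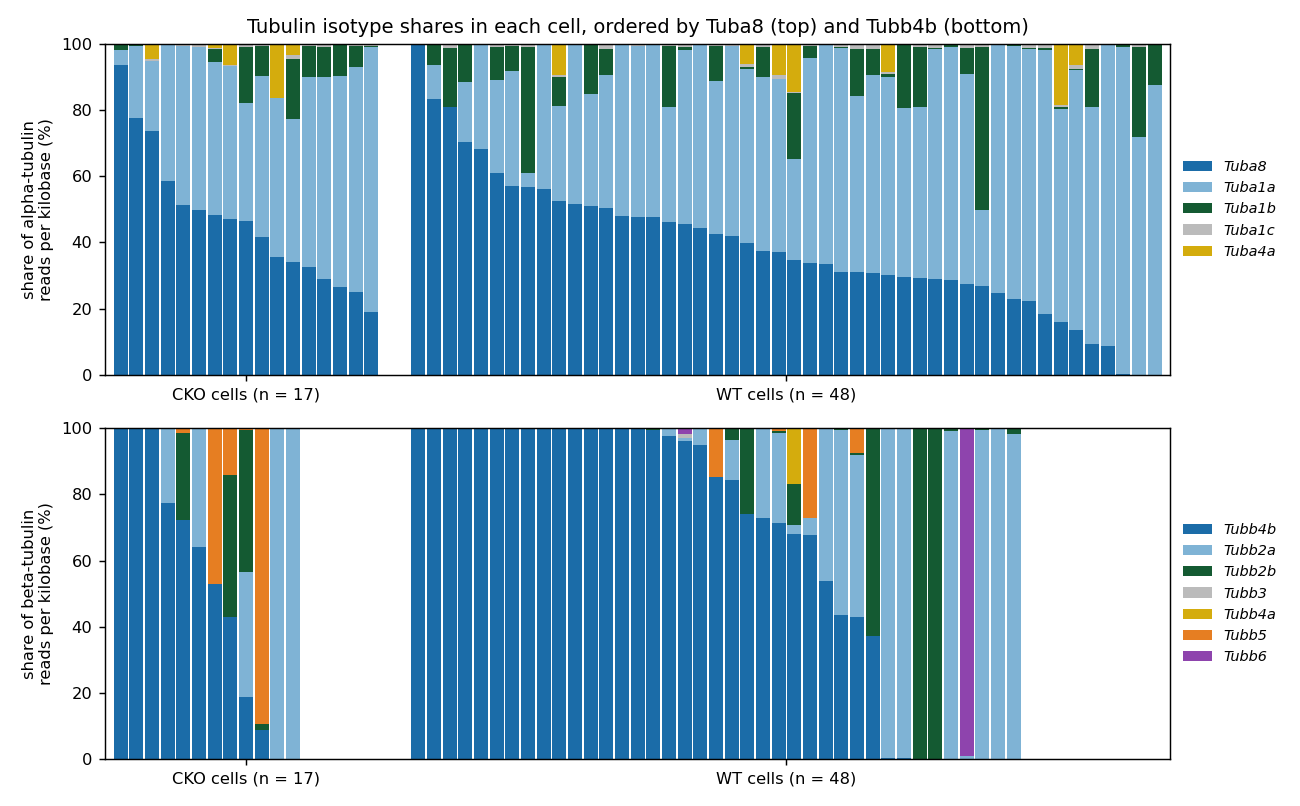
Share of alpha-tubulin reads (top) and beta-tubulin reads (bottom) per kilobase of exon held by each isotype, with 1 bar per cell, CKO cells left of WT cells and sorted by the share of Tuba8 or Tubb4b; cells under 5 CPM of the class are left blank. Most cells mix Tuba1a and Tuba8 in proportions that run from almost all of the first to almost all of the second, and the beta-tubulin bars range from Tubb4b alone to cells led by Tubb2a or Tubb2b.

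Gamma-tubulin, which nucleates microtubules, was represented by Tubg1 (chr11:101119938-101126419, plus strand). Tubg1 was at 0 CPM in the lowest, 4.03 in the median and 224 in the highest CKO cell, and at 0, 0 and 162 CPM in WT cells, with counts in 10 of 17 CKO cells and 20 of 48 WT cells. Its summed level was 54.0 CPM in CKO cells and 23.9 CPM in WT cells, a log2 ratio of 1.17 (1.14 to 1.21 by counting error alone), with 0.88, 1.37 and 0.82 against the 3 runs of WT cells. CKO cells were higher in each of these comparisons, but the log2 ratio was under the 2-fold mark, at 0.93, 0.93 and 0.96, when CKO cell 2, 7 or 12 was left out. With every cell thinned to 7458126 counts, Tubg1 was found in 10 CKO and 19 WT cells. Of its exon windows, 11.1% occur also in another gene, mainly Tubg2, the second gamma-tubulin gene. Tubg2 had 1 count in the CKO cells and 3.62 CPM in the WT sum, from 6 WT cells. Nearly all of that WT sum came from the cells at 88.5 and 89.6 CPM, with the others at 0.18 CPM or less. Delta-tubulin Tubd1, a centriolar tubulin, was at 26.3 CPM in CKO cells and 18.5 CPM in WT cells, counted in 2 of 17 and 15 of 48 cells. CKO cell 9 held 78.8% of the CKO counts of Tubd1, and the log2 ratio was 0.51 with it and -1.63 without it. Epsilon-tubulin Tube1 was at 4.54 CPM in CKO cells and 2.79 CPM in WT cells, nearly all from 1 cell of each group.

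The kinesin-1 heavy chains, the conventional motors of organelle and vesicle transport, held the highest kinesin level per kilobase of exon with Kif5b, at 59.0 CPM per kilobase in CKO cells and 64.3 in WT cells, ahead of Kif3a at 38.7 in CKO cells and 31.9 in WT cells. Kif5b, the ubiquitous heavy chain, was at 158 CPM in the lowest, 418 in the median and 869 in the highest CKO cell, and at 14.9, 444 and 1367 CPM in WT cells. Summed, it was at 471 CPM in CKO cells and 513 CPM in WT cells, a log2 ratio of -0.12, and it had counts in all 65 cells. Kif5c, a heavy chain best known from neurons, was at 55, 204.4 and 599.8 CPM in the lowest, median and highest CKO cell and at 0, 168 and 571 CPM in WT cells. Its sums were 239 CPM in CKO cells and 195 CPM in WT cells, a log2 ratio of 0.29, which was -0.38 against WT cells 1 to 11 and 0.74 against WT cells 12 to 45. Both genes overlapped fully between the groups. Kif5a, the third heavy chain and also neuronal, was at 7.15 CPM in CKO cells and 2.60 CPM in WT cells, a log2 ratio of 1.46. CKO cell 15 held 83.8% of the Kif5a counts of its group, and without it the log2 ratio was -1.09; without WT cell 13 it was 2.17. Per kilobase, Kif5b made up 63.1% of heavy chain reads in CKO cells and 69.9% in WT cells, and Kif5b led in 14 of 17 and 42 of 48 cells, with Kif5c leading in all others.

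The light chains, which link kinesin-1 to cargo, were each counted in part of the cells. Klc4 was at 64.6 CPM in CKO cells and 63.1 CPM in WT cells, a log2 ratio of 0.03 that was -0.21 without CKO cell 6. Klc1, the light chain most studied in neurons, was at 63.9 CPM in CKO cells and 36.6 CPM in WT cells, a log2 ratio of 0.80, with 0.52, 0.92 and 1.05 against the runs of WT cells and 1.00 without WT cell 4. Its per-cell values were 0, 23 and 226 CPM at the lowest, median and highest in CKO cells and 0, 3.95 and 209 CPM in WT cells, which overlap. Klc3 was at 0, 0 and 75 CPM in the lowest, median and highest CKO cell and at 0, 7.54 and 200.9 CPM in WT cells, with counts in 6 of 17 and 28 of 48 cells and, after thinning, in 6 CKO and 26 WT cells. Summed, Klc3 was at 17.8 CPM in CKO cells and 37.9 CPM in WT cells, a log2 ratio of -1.09 (-1.14 to -1.04 by counting error alone). That ratio was -0.98 against WT cells 1 to 11 and -1.28 against WT cells 12 to 45, while WT cells 46 to 48 had no Klc3 count at all. It lay just short of 2-fold, between -1.0 and -0.98, when CKO cell 3, 5, 6, 7, 11 or 14 or WT cell 23 was left out. Within WT cells 12 to 45, the first cells of the run had Klc3 at 0.24 CPM or less. Klc2 missed the 5 CPM minimum by little and was singled out after its values were seen. It was at 0, 0.49 and 3.47 CPM in the lowest, median and highest CKO cell and at 0, 1.77 and 37.8 CPM in WT cells. Its sums were 0.77 CPM in CKO cells and 4.83 CPM in WT cells, a log2 ratio of -2.66, the WT cell was the higher in 74.8% of pairs, and 0 CKO cells but 11 WT cells reached 5 CPM. Exons of Klc1, Klc2 and Klc3 overlap exons of Xrcc3, AC124502.1 and Ercc2 on the opposite strand, and since the strand setting of the counting is not given, reads of such pairs cannot be told apart.

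**Figure D4:**
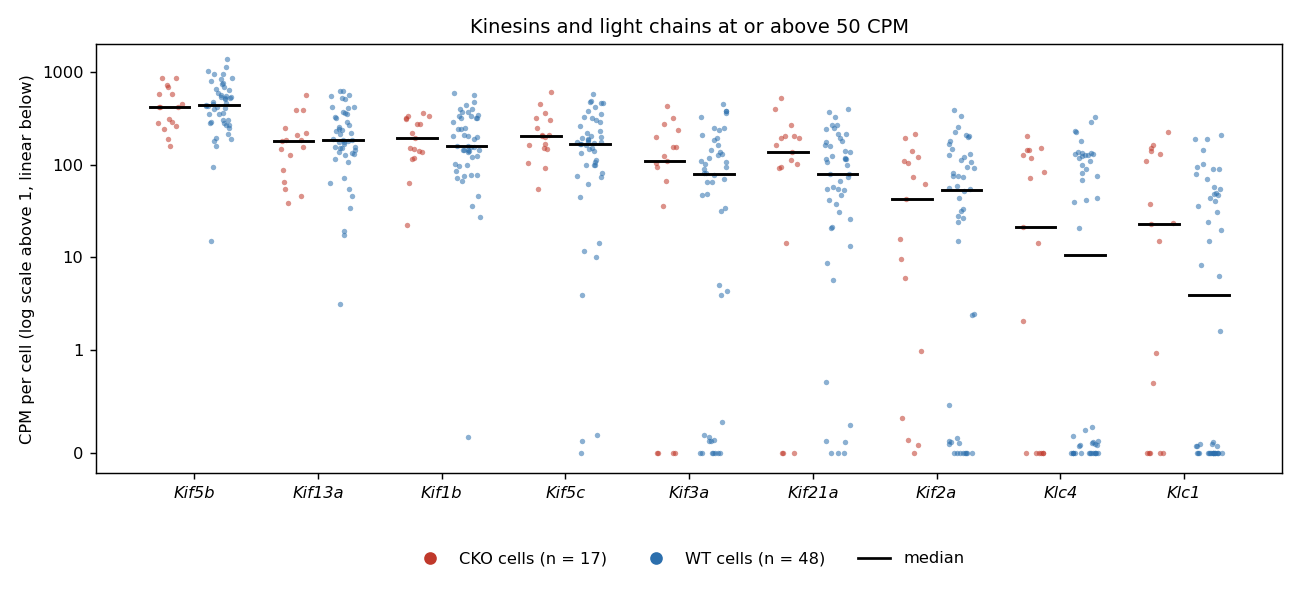
CPM of the 9 kinesin and light chain genes that reached 50 CPM in at least 1 group sum, in each CKO cell (red) and each WT cell (blue), ordered by the WT level, with the group median as a black line and an axis that is logarithmic above 1 CPM. Kif5b, Kif13a, Kif1b and Kif5c were present in nearly every cell of both groups, whereas Kif3a, Kif21a, Kif2a, Klc4 and Klc1 were at or near 0 in a share of the cells of each group.

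Kinesin-2 motors drive transport along cilia and in the cell body, as a pair of Kif3a with Kif3b or Kif3c joined by the accessory subunit Kifap3, or as Kif17 alone. Kif3a was at 0, 108 and 433 CPM in the lowest, median and highest CKO cell and at 0, 79.8 and 455 CPM in WT cells; its sums were 139 CPM in CKO cells and 115 CPM in WT cells, a log2 ratio of 0.28. The ratio changed sign with the run, at -0.27 for cells 1 to 11, 0.73 for cells 12 to 45 and -0.43 for cells 46 to 48. Its partner Kif3b was scarce in both groups. Kif3b had no count in the 17 CKO cells. By an approximation, 3 divided by the number of cells, that leaves room for 17.6% of cells with a count. It sets no limit on the cells that express Kif3b. Kif3b was at 5.40 CPM in the WT sum from 8 of 48 cells, 4 of them at 5 CPM or more. With the CKO sum set at 3 counts over the group, the summed Kif3b level was at least 360-fold lower in CKO cells. That bound covers the counting of reads alone, not the sampling of cells, and rests on few WT cells. The approximate room for 17.6% of CKO cells only just takes in the WT share of 8 of 48 cells. WT cell 38 alone held 45.8% of the WT counts, and without WT cell 38 or 45 the WT sum was 3.09 or 3.00 CPM, under the minimum of 5 CPM. Within WT cells, Kif3b was at 0.026 CPM in cells 1 to 11, at 8.30 CPM in cells 12 to 45 and at 0 in cells 46 to 48, so the WT runs differed in it too. Kif3c was at 6.24 CPM in CKO cells, all from CKO cell 9, and 5.48 CPM in WT cells from 7 cells. Of its 50-base windows, 39.6% are shared, mainly with the opposite-strand gene 1110002L01Rik. Kif3a was at 5 CPM or more without Kif3b in 13 of 17 CKO cells and 30 of 48 WT cells, and both were at that level together in 0 CKO cells and 3 WT cells. Kifap3, which the symbol rule does not take in, was at 171 CPM in CKO cells and 114 CPM in WT cells, a log2 ratio of 0.58, with counts in 17 of 17 and 42 of 48 cells.

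The kinesin-3 family carries vesicles and endosomes and was represented mainly by Kif13a and Kif1b. Kif13a, an endosomal motor, was at 38.4, 179.8 and 556 CPM in the lowest, median and highest CKO cell and at 3.14, 185 and 618 CPM in WT cells. Its sums were 198 CPM in CKO cells and 237 CPM in WT cells, a log2 ratio of -0.26 that was -0.12, -0.26 and -0.72 against the runs. Kif1b, a motor of synaptic vesicle precursors and mitochondria, was at 22.4, 193 and 363 CPM in the lowest, median and highest CKO cell and at 0.16, 159 and 589 CPM in WT cells. Its sums were 203 CPM in CKO cells and 200.3 CPM in WT cells, a log2 ratio of 0.02; WT cells 1 to 11 were at 126 CPM and WT cells 12 to 45 at 226 CPM, on either side of the CKO level. Kif16b, a motor of early endosomes, was at 6.47 CPM in CKO cells and 15.7 CPM in WT cells, a log2 ratio of -1.28, with counts in 3 of 17 and 11 of 48 cells. All WT counts of Kif16b came from cells 12 to 45, at 24.2 CPM, since WT cells 1 to 11 and 46 to 48 had none. Within cells 12 to 45, the lower-numbered cells had no Kif16b count either, so that run was not uniform in it. The ratio was -2.94 without CKO cell 7 and -0.98 without WT cell 40. Kif1a, Kif1c and Kif13b, the other measured members, had log2 ratios between -0.08 and 0.27 at 5.31 to 10.0 CPM; that of Kif13b was -2.37 without CKO cell 17, that of Kif1a -1.21 without CKO cell 10 and that of Kif1c -0.78 without CKO cell 11.

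Among the other families Kif21a and Kif2a reached 50 CPM. Kif21a, a kinesin-4 that damps microtubule growth at the cell cortex, was at 0, 136 and 528 CPM in the lowest, median and highest CKO cell and at 0, 79.7 and 399 CPM in WT cells. Its sums were 159.9 CPM in CKO cells and 109 CPM in WT cells, a log2 ratio of 0.55, with 0.68, 0.49 and 0.68 against the 3 runs; the groups overlapped, the CKO cell being the higher in 58.6% of pairs. Kif2a, a kinesin-13 that takes microtubule ends apart, was at 0, 42.7 and 211 CPM in the lowest, median and highest CKO cell and at 0, 53.2 and 391 CPM in WT cells. Its sums were 70.3 CPM in CKO cells and 77.2 CPM in WT cells, a log2 ratio of -0.14, which was 1.16 against WT cells 1 to 11 and -0.50 against WT cells 12 to 45. Kif2a exons overlap those of Dimt1 on the opposite strand, and 19.7% of its windows are shared. Kif28 was at 28.2 CPM in CKO cells and 13.1 CPM in WT cells, a log2 ratio of 1.10, with counts in 7 of 17 and 22 of 48 cells and ratios of 0.66, 1.26 and 2.33 against the runs. Without CKO cell 1, 10, 12, 13 or 15 its log2 ratio lay between 0.78 and 0.95, under 2-fold. Kif28 exons overlap those of Ahctf1 on the same strand. Kif19a, a kinesin-8 known for setting the length of motile cilia in mice, was at 2.81 CPM in CKO cells, all from CKO cell 3, and 7.61 CPM in WT cells from 11 cells, a log2 ratio of -1.44. WT cells 1 to 11 had no Kif19a count. Kif9 and Kif24, the other measured kinesins, were at 5.17 and 8.05 CPM in CKO cells and at 4.66 and 7.05 CPM in WT cells; the log2 ratio of Kif9 was 0.15, with -1.60 without CKO cell 16 and 1.11 without WT cell 19. That of Kif24 was 0.19, with -0.66 without CKO cell 5 and 0.79 without WT cell 36.

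Mitotic kinesins were low in both groups. Of 11 genes listed for spindle and cytokinesis work, 2 reached 5 CPM, and the 11 genes summed to 19 CPM in CKO cells and 13.2 CPM in WT cells. Kif20a, needed in cytokinesis, was at 8.02 CPM in CKO cells and 0.69 CPM in WT cells, a log2 ratio of 3.53, with counts in 5 cells of each group. Of its windows, 25.2% are shared with the opposite-strand gene Cdc23, and CKO cell 5 held 50.4% of the CKO counts of Kif20a; the log2 ratio was 2.61 without that cell and 6.01 without WT cell 5. Kif23, also of cytokinesis, was at 4.34 CPM in CKO cells and 7.82 CPM in WT cells, a log2 ratio of -0.85, with counts in 2 of 17 and 17 of 48 cells. Its ratio was -3.18 without CKO cell 2 and -1.09 without CKO cell 13. Kif11, Kif4, Kif14 and Kif2c had no count in CKO cells and at most 0.0091 CPM in the WT sum. Kif20b and Kif22 also had no count in CKO cells, but reached 97.6 CPM in WT cell 10 and 26.5 CPM in WT cell 4.

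The genes without a count in any cell were Kif12, Kif2b, Kif7, Tuba3a and Tubb1. Under 5 CPM but with counts in CKO cells alone was Kif26b, at 2.67 CPM in the CKO sum, 99.6% of it from 1 cell. Kif17 had counts in 4 WT cells, at 6.60 CPM in the highest, and none in CKO cells, and Kif16bos in 2 WT cells and none in CKO cells. Kif6, Tuba3b and Tubb6 also had counts in WT cells alone, with Tubb6 at 13.8 CPM in its highest WT cell. The CKO group has fewer cells, and the share of all genes counted in WT cells alone was not taken.

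The median cell had 8 of the 38 Kif motor genes at 5 CPM or more in both groups, with 6 to 13 in CKO cells and 3 to 12 in WT cells. The median number of light chain genes at that level was 1 in CKO cells and 2 in WT cells, of 4. Across the 9 measured members with a count in at least 80% of the cells of each group, Spearman's rho over cells lay between -0.57 and 0.55 in the 17 CKO cells and between -0.39 and 0.21 in the 48 WT cells for the 36 pairs of genes, with medians of 0.04 and -0.02, as a description of cells that share depth and library preparation. Kif5b with Kif5c had a rho of 0.13 in CKO cells and 0.21 in WT cells. It was 0.69 in WT cells 1 to 11 and -0.05 in WT cells 12 to 45, runs that differ in the level of both genes.

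Several members differed more between runs of WT cells than between the genotypes. Kif5b was at 471 CPM in CKO cells; WT cells 1 to 11 had 702 CPM, WT cells 12 to 45 had 407 CPM and WT cells 46 to 48 had 742 CPM. Kif5c was at 239 CPM in CKO cells and at 312, 143 and 208 CPM in these runs of WT cells, and Kif2a at 70.3 CPM in CKO cells and at 31.4, 99.2 and 58.4 CPM in these runs. Tuba8 and Kif21a were among several members higher in CKO cells than in each of the 3 runs. Others included Tubg1, Klc1, Kif28, Kif20a and Tubb2b. With the Xist pattern alone (15 CKO and 9 WT cells), Tuba8 was at 295 CPM in CKO cells and 191 CPM in WT cells. Tubg1 was at 50.6 CPM in these CKO cells and 27.1 CPM in these WT cells. Kif21a was at 164 CPM in these CKO cells and 76.6 CPM in these WT cells. Other members changed sign there, among them Kif3a (log2 ratio 0.28 over all cells, -0.64 with the pattern) and Kif5c (0.29 and -0.12). The same held for Tubb4b (-0.32 and 0.52) and Kif2a (-0.14 and 0.29).

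**Figure D5:**
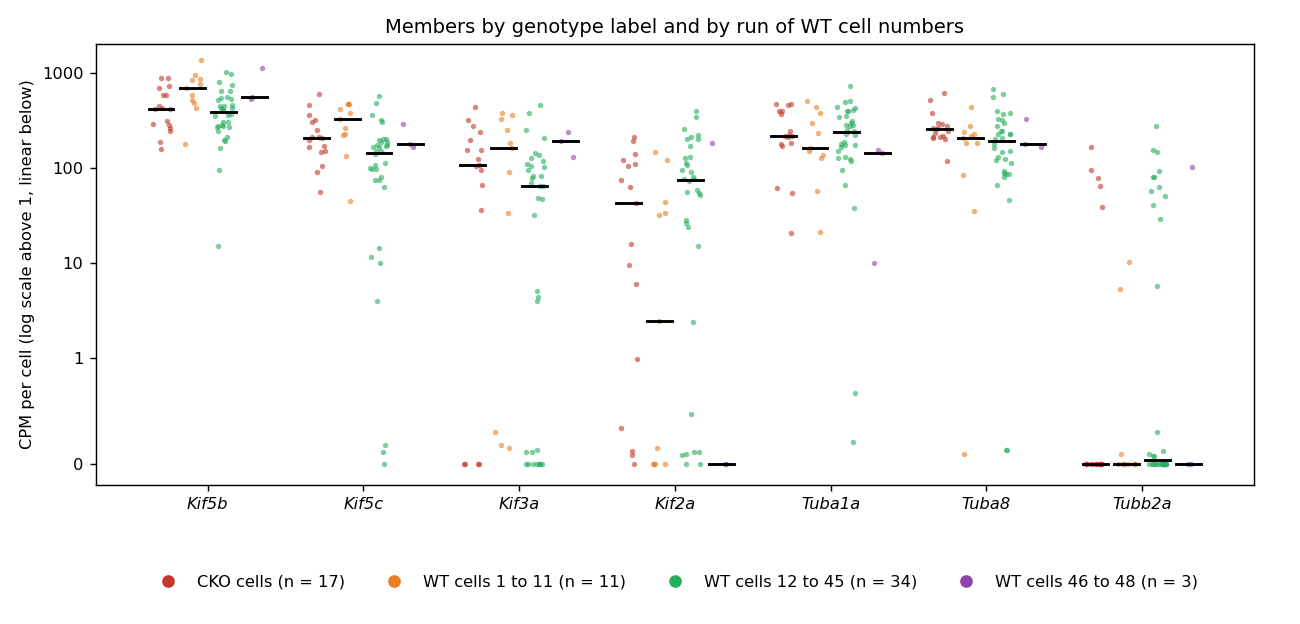
CPM per cell of 7 members in CKO cells and in WT cells 1 to 11, 12 to 45 and 46 to 48, with medians as black lines and an axis that is logarithmic above 1 CPM. Kif5b and Kif5c had their lowest medians in WT cells 12 to 45, Tubb2a was near 0 in most WT cells 1 to 11, Kif2a had a median of 2.46 CPM there and of 73.9 CPM in WT cells 12 to 45, and Tuba8 had its highest median in CKO cells.

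Genes that act on tubulin or beside kinesins were read from lists, with the same minimum of 5 CPM and the same background of 15.1% higher and 14.5% lower. The list of tubulin folding cofactors and related genes had 8 of 8 genes measured, 1 of them at least 2-fold higher in CKO cells. That gene, Tbcel, is named for its likeness to cofactor E and is not taken here as a folding cofactor. Tbcel was at 53.7 CPM in CKO cells and 23.2 CPM in WT cells, a log2 ratio of 1.21. The ratio of Tbcel was 2.05, 1.06 and 0.32 against the runs, 0.95 without CKO cell 2 and 0.93 without CKO cell 3. Its exons overlap Gm44311 on the opposite strand. The chaperonin CCT, which folds tubulin and actin, had 8 of 8 and prefoldin, which hands it substrates, 6 of 6 genes measured, and none of these was past 2-fold in either direction. Of the 9 genes of the gamma-tubulin ring complex list, 0 were 2-fold higher and 2 were 2-fold lower; Tubgcp3 was at 6.41 CPM in CKO cells and 25.6 CPM in WT cells, a log2 ratio of -2.0. That of Tubgcp3 was 0.34, -2.42 and -2.13 against the runs, so its direction turned against WT cells 1 to 11, and -3.66 without CKO cell 10. Exons of Tubgcp3 overlap 4931415C17Rik on the opposite strand. Tubulin-modifying enzymes had 16 of 26 genes measured, 2 at least 2-fold higher and 6 at least 2-fold lower, with a median log2 ratio of -0.59. Atat1, which acetylates alpha-tubulin, was at 41 CPM in CKO cells and 13.8 CPM in WT cells; its exons overlap Gm16279 on the opposite strand. The log2 ratio of Atat1 was 1.57, with 1.06 against WT cells 1 to 11 and 1.70 against WT cells 12 to 45. Agtpbp1, which trims glutamate side chains, was at 6.74 CPM in CKO cells and 21.3 CPM in WT cells, a log2 ratio of -1.66. Agtpbp1 had ratios of -2.37 and -1.38 against WT cells 1 to 11 and 12 to 45 and -2.31 without CKO cell 4. Ttll4, which starts such chains, was at 15.7 CPM in CKO cells and 46.9 CPM in WT cells, a log2 ratio of -1.58, with -1.18 and -1.85 against the same runs. WT cells 46 to 48 had no count of Agtpbp1 or Ttll4, so both were higher in CKO cells against that run. Structural microtubule-associated proteins had 15 of 19 measured, 1 higher and 4 lower by 2-fold, with a median of -0.33. Map1b, a microtubule-binding protein of growing neurites, was at 21.3, 219.6 and 451 CPM in the lowest, median and highest CKO cell and at 0, 413 and 1086 CPM in WT cells. Its sums were 199.9 CPM in CKO cells and 467 CPM in WT cells, a log2 ratio of -1.22, with -0.82, -1.38 and -1.14 against the runs. Plus-end proteins had 13 of 16 measured, 2 higher and 1 lower; stathmins and severing enzymes had 8 of 11, with 1 each way; and kinesin cargo adaptors had 13 of 14, with 0 higher and 3 lower.

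Cytoplasmic dynein and its cofactor dynactin, the motor that walks toward the minus end, had 21 of 22 genes measured and 1 past 2-fold. That gene was Dctn3 (chr4:41714798-41723170, minus strand), a subunit of the shoulder of dynactin. It was at 17.3, 415 and 602 CPM in the lowest, median and highest CKO cell and at 261, 757 and 1596 CPM in WT cells. Its sums were 389 CPM in CKO cells and 779 CPM in WT cells, a log2 ratio of -1.0, with -1.29, -0.86 and -0.96 against the runs of WT cells. Leaving out 1 cell put the ratio under 2-fold for 26 of the 65 cells, at -0.94 for CKO cell 4 as the smallest. The groups overlapped, but the WT cell was the higher in 93.9% of the 816 pairs. Among cells with the Xist pattern Dctn3 was at 375 CPM in CKO cells and 967 CPM in WT cells.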

How the data were processed

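The authors deposited 1 table of raw counts per gene for 65 cells, and the submitters' processing notes name mm10 and the tools featureCounts 2.0.1, HISAT2 2.2.1 and StringTie 2.2.1. Not given in the sources used here are the annotation release, the strand setting, how reads with several matches were handled and any cell filter. No 2 of the 65 columns were identical. All 65 columns matched the title of 1 sample.

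CPM of a group is its summed count of a gene over its total of all genes (199812603 in CKO, 547934202 in WT). No test across genes was run, because no label ties cells to animals. Ratios carry no pseudocount; a group with no count was set to 3 counts over the group. Intervals are exact at 95% and, since these reads carry no molecular identifiers, cover counting error only. The 17.6% given for Kif3b is not such an interval but 3 divided by the number of CKO cells. GENCODE M21 (GRCm38), which holds 96.4% of the symbols, gave positions, exon lengths, coding ends and shared 50-base windows. Pairs of cells with equal CPM counted as 0.5.

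Named members are every tubulin at 5 CPM or more, every kinesin or light chain at 50 CPM or more, and the 6 highest and 6 lowest ratios among kinesins and light chains at 5 CPM or more. Of each other list, up to 3 genes with the largest ratio at 20 CPM or more could be named. The members and lists were chosen with earlier results of these data known. The runs of WT cell numbers were set from the mt-Co2 values, and no label names a batch. Scaling factors for 2 alternatives came from edgeR 4.0.16 and DESeq2 1.42.0, run on the group sums; other steps used Python 3.11.15 with numpy 2.4.6, pandas 2.3.3 and scipy 1.17.1. The ratio and interval code was tested on simulated data. Other alternatives were the mean or median of per-cell CPM, other minimums, another fold, leaving out each cell, each run alone, the Xist pattern and the deeper cells.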

Additional observations from a re-analysis of the deposited data

How the results depend on the processing

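No paired analysis was possible because the numbers of the cells only name them and no test was run. The counts of members at least 2-fold higher and lower, 6 and 4 here, were 2 and 0 from medians of per-cell CPM, 10 and 8 with a minimum of 1 CPM, 3 and 1 with 20 CPM, 11 and 13 with no minimum, 1 and 1 with a count required in 50% of cells, and 12 and 2 against the 3 WT cells 46 to 48. Leaving out each cell gave 4 to 7 higher and 3 to 6 lower members, medians of 0.16 to 0.44 for tubulins, and of -0.06 to 0.15 for kinesins and light chains. The kinesin median was 0.28 from per-cell medians and -0.0046 with a total without mitochondrial and ribosomal genes. TMM and median-of-ratios factors shifted all ratios by -0.03. Reversed were Kif16b (8.39 against WT cells 1 to 11, 6.29 against 46 to 48, 8.24 with the Xist pattern, all bounds), Kif19a (7.19, a bound, against WT cells 1 to 11, 8.62 with the Xist pattern, 0.042 in deep cells), Tubb5 (-0.088 against WT cells 1 to 11, -0.24 with the Xist pattern), Klc3 (7.75, a bound, against WT cells 46 to 48) and Kif5a (leave-one-out values of -1.09 to 2.17). Over all measured members, 62 of 375 single values changed sign, and 10 of 33 members never did. The cause was not tested. A gene with no count in a cell may be present below what that depth shows.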
